A study of Solanum virginianum with 36 samples.

Results

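The comparison described here sets the second day of thrips feeding against the first in leaves of a thrips-resistant eggplant line. The tested libraries were the 3 taken after 48 h of feeding and the 3 taken after 24 h, chosen by their labels, so 6 of the 36 libraries of the series entered the comparison itself. The same step in the thrips-susceptible line, again with 3 libraries at 48 h and 3 at 24 h, shares no library with it and was used to see what both lines had in common. All 36 libraries, from both lines at 0, 4, 8, 12, 24 and 48 h, served to estimate the spread of each gene. The samples carry the organism name Solanum virginianum, although the title and the design text name eggplant.

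The labels give thrips feeding as the treatment of every group, 0 h included, and the groups at 48 h and 24 h of a line differ in the labelled time. Plants grew under 16 h of light and leaves were collected 1 week after transplanting, per the labels' protocols. No group of the labels was kept free of thrips for 24 or 48 h, so longer feeding and a leaf older by 1 day cannot be told apart. If sampling kept to whole days, as the labelled times imply, both groups share the hour of the day. The labels call the 3 libraries of a group biological replicates and do not name the plants behind them.

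Western flower thrips pierces single leaf cells and sucks out their contents. In plants, wounding of this kind is known to start jasmonate signalling, which raises defence proteins such as proteinase inhibitors and shifts leaves away from growth and photosynthesis. The title of the series points to quinic acid, a precursor of chlorogenic acid, the main phenolic compound of eggplant. The deposited tables name genes only by IDs of the form Sme2.5, without symbols or functions. For that reason no pathway or leaf marker could be looked up, and the IDs below are described by their values.

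Estimated counts over rows with an ID came to 32321897 to 40332277 per library at 48 h and to 33959621 to 37155828 at 24 h in the resistant line. A count was found for 22094 to 22905 IDs at 48 h and for 21910 to 22685 at 24 h. The 2 groups lay close together. Correlations of log2 CPM across tested IDs were 0.935 to 0.96 between libraries of the 2 times, against 0.95 to 0.958 within 48 h and 0.954 to 0.966 within 24 h. Replicate 1 at 24 h was as close to replicate 1 at 48 h (0.957) as to replicates 2 and 3 of its own group (0.954 and 0.957). Levels are given as CPM, the estimated counts divided by the library size after normalization and scaled in the usual way.

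Resistant 48 h replicate 3 held counts for IDs that were chosen as nearly absent from the rest of the line. Of 156 IDs with at most 3 counts over the other 17 resistant libraries but 5 CPM or more on average over susceptible libraries, this library held a count for 109. Their median level in it was 1.24% of the susceptible level. Of these IDs 155 were tested and 2 are among the IDs that rose. For 35 of the changed IDs described below, 17 of which rose, 1.24% of the susceptible 48 h level comes to more than 0.1 of the level in this library. The part of such counts in the results was not tested, and results are given with and without this library.

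A small part of the tested IDs passed the test for a change between the second day and the first. Of 23719 IDs tested, 617 (2.6%) changed in the resistant line, 250 (1.05%) higher and 367 (1.55%) lower at 48 h (edgeR's quasi-likelihood test over all 36 libraries, Benjamini-Hochberg adjusted p under 0.05). The median fitted change was 1.0 on the log2 scale among IDs that rose and -1.07 among IDs that fell, close to 2-fold either way. For comparison, the 5th and 95th percentiles over all tested IDs were -1.36 and 1.64, so many IDs with changes of this size did not pass. These percentiles include 6229 IDs under 1 CPM in the higher group, of which 0.466% changed, so the 2 sets differ in level. By the same edgeR test 4409 IDs (18.6%) had an unadjusted p under 0.05. The 617 are thus a count of calls and do not measure how much of the transcriptome changed. In whole leaves, fewer cells of a type and less RNA per cell cannot be told apart.

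Most changes were smaller than 4-fold. Of the 617 IDs, 291 changed less than 2-fold, 126 rose and 200 fell at least 2-fold, and 56 rose and 51 fell at least 4-fold. Changes of at least 8-fold were fitted for 33 IDs that rose and 19 that fell. A count in all 3 libraries at 48 h and in none at 24 h was found for 30 IDs, of which 10 passed the test, and the reverse for 26 IDs, of which 4 passed. Fitted changes of such IDs depend on the prior count of the fit and are no measure of fold.

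The changed IDs held a small share of the RNA. The IDs that rose took 3.13%, 3.55% and 2.51% of the counts with an ID in replicates 1, 2 and 3 at 48 h, against 1.32%, 1.40% and 1.53% at 24 h. The IDs that fell took 1.59%, 1.12% and 1.42% at 48 h, against 3.02%, 2.53% and 2.42% at 24 h. The libraries of the 2 times do not overlap in either share, which the choice of IDs fixes. By level in the higher group, counted per library and not per length, 5.61% of 2370 IDs with at least 100 CPM changed, 3.86% of 6510 IDs from 20 to 100 CPM, 2.86% of 4961 from 5 to 20 CPM, 1.7% of 3649 from 1 to 5 CPM and 0.466% of 6229 under 1 CPM.

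**Figure D1:**
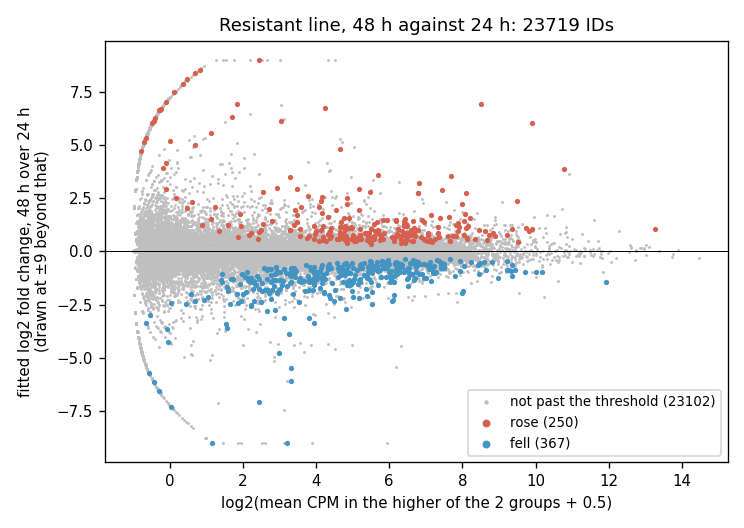
Each point is 1 of 23719 IDs, with its level in the higher of the 2 groups on the horizontal axis (log2 of mean CPM + 0.5) and its fitted log2 fold change, 48 h over 24 h, on the vertical axis. The 250 IDs that rose (red) and the 367 that fell (blue) lie mostly within 4-fold, and points on the outer arcs belong to IDs without a count in 1 group.

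The 3 libraries of each time fell on separate sides for most changed IDs, which the choice of IDs by the same libraries favours. Groups did not overlap for 576 of the 617, 233 that rose and 343 that fell, beside 4652 of all tested IDs (19.6%). Within the groups the libraries differed in how far they had moved. Replicate 2 at 48 h was the highest of its group in 177 of the 250 IDs that rose and the lowest in 266 of the 367 that fell. Its median log2 ratio to the 24 h mean was 1.10 over the IDs that rose and -1.29 over those that fell. Replicate 1 stood at 0.69 and -0.81 and replicate 3 at 0.69 and -0.91, all with 0.5 CPM added. For 18 of the IDs that rose, 1 library at 48 h exceeded 3 times both others, and in 10 of these it was replicate 3.

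The number of changed IDs rested on single libraries and on the fit. Without replicate 3 at 48 h, 536 of 24394 IDs changed (2.2%), 207 (0.849%) higher and 329 (1.35%) lower, and 408 of the 617 passed again in the same direction. Without replicate 2 at 48 h 206 changed, and without replicate 1 at 48 h 1270 changed. Without replicate 1 at 24 h 221 changed, without replicate 2 at 24 h 325, and without replicate 3 at 24 h 621. The split also moved, since IDs that rose made up 40.5% of the changed IDs with all libraries, 52.4% without replicate 2 at 48 h and 30.2% without replicate 2 at 24 h. With limma on FPKM scaled by TMM, which also differs in the test and covers 17463 IDs, 290 rose and 278 fell with 1 added before the log, and 238 rose and 300 fell with 0.1 added. A surplus of IDs that fell was thus not found in every fit.

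With only the 6 libraries compared, edgeR's test called 0 of 19067 IDs, while 2849 (14.9%) had an unadjusted p under 0.05 and the lowest adjusted p was 0.0908. On the same 6 libraries limma on log2 CPM called 2 IDs and DESeq2 called 960. With the 18 resistant libraries alone edgeR called 144 IDs, and 106 without replicate 3 at 48 h. The fit of 6 libraries differs in the spread, the filter and the degrees of freedom, and which of these mattered was not tested. The IDs called with all libraries and also without each of the 6 in turn, in the same direction, numbered 105, of which 32 rose and 73 fell. Their median log2 changes were 1.49 and -1.21. DESeq2 on the same 6 libraries, which is no independent check, called 96 of them, beside 414 of the 617 and 960 of 19067 in all. The 4 IDs named next are among the 105.

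Sme2.5_02627.1_g00004 had the largest rise among the 347 IDs eligible to be named, which passed with and without 48 h replicate 3 and had at least 10 counts in each of the 6 libraries. It had 150, 859 and 90.6 CPM in replicates 1, 2 and 3 at 48 h, against 2.53, 1.63 and 4.99 CPM at 24 h. Every library at 48 h lay far above every library at 24 h, and those at 48 h themselves spread widely, at 366 ± 427 CPM, against 3.05 ± 1.74 CPM at 24 h (SD, n = 3 each). The fitted change was 6.91 ± 0.992 on the log2 scale (SE; edgeR adjusted p = 0.000367), about 120-fold, and 7.36 without replicate 3 at 48 h (edgeR adjusted p = 0.000136). Without replicate 2 at 48 h it was 5.28 (edgeR adjusted p = 0.00269). At 0 to 12 h its group means were 0.31 to 0.78 CPM, so the level at 24 h was already above all earlier groups.

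Sme2.5_10464.1_g00001 rose in the same manner. It had 1260, 1340 and 287 CPM at 48 h, against 9.04, 8.40 and 26.7 CPM at 24 h. As in the first ID, the lowest library at 48 h and the highest at 24 h were both replicate 3. The change was 6.03 ± 1.03 on the log2 scale (SE; edgeR adjusted p = 0.00208), about 65.3-fold, and 6.45 without replicate 3 at 48 h (edgeR adjusted p = 0.00119). Without replicate 3 at 24 h it was 6.78 (edgeR adjusted p = 0.00547). Its group means at 0 to 12 h were 6.61 to 10.3 CPM, a range that the 24 h libraries overlapped, and the change from 0 to 24 h did not pass (log2 change 1.15 ± 0.856, SE; edgeR adjusted p = 0.513).

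Sme2.5_04026.1_g00001 had the largest fall among the eligible IDs. It stood at 0.519, 1.19 and 1.11 CPM at 48 h, from 16 to 37 estimated counts, against 7.39, 10.3 and 7.02 CPM at 24 h. The groups were well apart. The change was -3.13 ± 0.586 on the log2 scale (SE; edgeR adjusted p = 0.00404), so the level at 24 h was about 8.75-fold that at 48 h, and -3.28 without replicate 3 at 48 h (edgeR adjusted p = 0.0138). Group means from 0 to 12 h were 4.37 to 6.84 CPM, all above the 3 libraries at 48 h.

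Sme2.5_00136.1_g00012 had 2.37, 0.704 and 1.59 CPM at 48 h, against 12.6, 13.3 and 14.6 CPM at 24 h. The change was -3.11 ± 0.328 on the log2 scale (SE; edgeR adjusted p = 5.9e-06) and -3.14 without replicate 3 at 48 h (edgeR adjusted p = 6.7e-05). This ID ran through a wide range over the labelled times, of which 4, 8 and 12 h lie at other hours of the day than 0 h. It averaged 36.6 ± 11.3 CPM before feeding, 98.2 ± 9.97 CPM after 4 h, 69.6 ± 10.6 CPM after 8 h and 99.5 ± 11.8 CPM after 12 h (SD, n = 3 each). It then averaged 13.5 ± 1.01 CPM after 24 h and 1.55 ± 0.833 CPM after 48 h (SD, n = 3 each). It thus lay below the 0 h level on the first day at the same labelled hour and further below on the second. With the 6 libraries alone all 4 IDs kept their direction and none passed edgeR's test (adjusted p = 0.15 to 0.221).

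**Figure D2:**
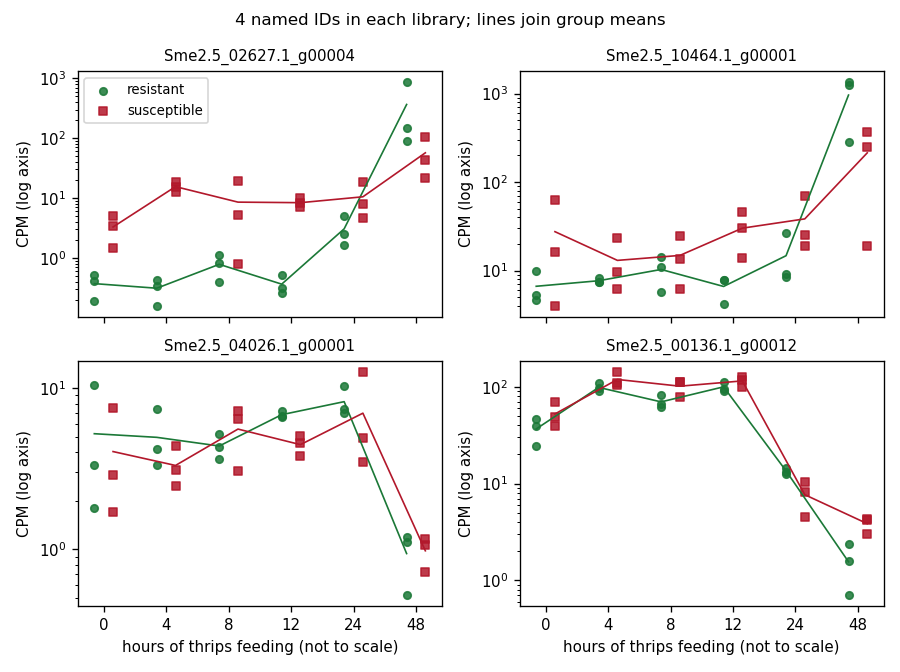
CPM on a log axis of the 4 named IDs in each library, by hours of feeding, with the resistant line as green circles, the susceptible line as red squares and lines through the group means of 3 libraries. The 2 IDs that rose reach 90.6 to 1340 CPM in resistant leaves at 48 h, and the 2 that fell reach 0.519 to 2.37 CPM.

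The changed IDs were then followed through the other times of the resistant line, whose levels were not part of the contrast. Their libraries did enter the fit that set the spread of each ID. The median level of the IDs that fell was 26.7, 26.6, 28.8 and 26.0 CPM at 0, 4, 8 and 12 h, then 28.9 CPM after 24 h and 13 CPM after 48 h. The median at 24 h was near those at the earlier times, and the one at 48 h was below all of them. Over single libraries the median was 9.93 to 14.6 CPM in the 3 libraries at 48 h, against 23.7 to 31.8 CPM in the 15 earlier ones. For 308 of the 367 IDs the mean at 48 h was the lowest of the 6 times, and for 102 the mean at 24 h was the highest. The choice of IDs with 48 h below 24 h favours both counts and a low median at 48 h, so nothing is read from these.

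For the IDs that rose, the choice favours a high median at 48 h in the same way. Their median level was 24.3, 27.7, 23.5 and 24.0 CPM at 0, 4, 8 and 12 h, then 21.2 CPM after 24 h and 40.9 CPM after 48 h. Over single libraries it was 33.6 to 47.1 CPM at 48 h, against 18.6 to 32.7 CPM in the 15 earlier libraries, the highest of which was 1 library at 4 h. For 201 of the 250 IDs the mean at 48 h was the highest of the 6 times, and for 99 the mean at 24 h was the lowest, counts that the choice of IDs favours in the same way. Over all tested IDs the median level was 7.23 to 7.89 CPM in the libraries at 48 h and 7.6 to 8.17 CPM in the earlier ones.

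Some of the same IDs had also changed at 4, 8 or 12 h. Those comparisons share no library with that of 48 h and 24 h, but take the spread of each ID from the same fit. By the labelled times these lie at other hours of the day than 0 h. Feeding and hour of the day cannot be told apart there. At 4 h against 0 h 66 of the IDs that rose on the second day had changed, 50 of them higher and 16 lower. Among all 3144 IDs that changed at 4 h (13.3% of those tested), 49% were higher, 1542 (6.5% of those tested) beside 1602 (6.75%) lower. Of the IDs that fell on the second day, 95 had changed at 4 h, 38 higher and 57 lower. At 8 h against 0 h the directions were 26 higher and 30 lower among the IDs that rose later, and 44 higher and 38 lower among those that fell later. Among all 2895 IDs that changed at 8 h (12.2% of those tested), 42% were higher, 1215 beside 1680 lower. At 12 h against 0 h 76 of the IDs that rose later had changed, 45 higher and 31 lower, and 126 of those that fell later, 60 higher and 66 lower, beside 4744 IDs in all (20%), 2314 (9.76%) higher and 2430 (10.2%) lower.

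The share of changed IDs depends on level, so shares were also taken over IDs with at least 5 CPM in the higher of the 2 groups. At 4 h against 0 h 29.9% of the IDs that rose and 27.3% of those that fell on the second day had then changed, against 19.4% of the 13841 tested IDs at that level. At 8 h, where 2895 of all tested IDs (12.2%) had changed, the shares were 25.1% and 23.2% against 17.8%, and at 12 h 34.1% and 36.5% against 28.7%. These 3 comparisons share their 0 h libraries. They and that of 12 h with 8 h take the spread of each ID from the same fit as the calls of the second day. An ID that varies little has a better chance of passing in each, which the bound of 5 CPM does not remove. This favours higher shares among the changed IDs, so nothing is read from a higher share. Between 12 h and 8 h, where 4330 of all tested IDs (18.3%) had changed, the share among IDs that rose was 19.4% and among IDs that fell 29.8%, against 26.6%.

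The step from 24 h to 48 h gave fewer calls than any step of feeding against 0 h in the resistant line by the same edgeR test. Against 0 h 2064 IDs (8.7%) changed at 24 h and 5482 (23.1%) at 48 h, comparisons that each share 3 libraries with the one described here.

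In the susceptible line 840 IDs (3.54%) changed between 48 h and 24 h, 419 (1.77%) higher and 421 (1.77%) lower at 48 h, by the same test. With 1 susceptible library left out the count was 1142 without 24 h replicate 1 and 211 to 445 without each of the other 5. The IDs changed in the resistant line mostly shifted the same way there, by less. Of the 367 that fell in the resistant line, 333 (90.7%) were below 0 in the susceptible line, beside 46.9% of all tested IDs, with a median log2 change of -0.48. Of the 250 that rose, 198 (79.2%) were above 0 in the susceptible line, beside 50.1% of all tested IDs, with a median of 0.28. The median over all tested IDs was 0.00 in the susceptible line. The IDs were chosen in the resistant line, where selection enlarges the fitted change, so the smaller medians in the other line do not show a weaker response. Of the 105 IDs that passed without each resistant library in turn, 26 of the 32 that rose and 70 of the 73 that fell shifted the same way in the susceptible line, and 36 passed there in that direction.

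The calls themselves overlapped in part. In both lines 36 IDs rose, which are 14.4% of those that rose in the resistant and 8.59% of those that rose in the susceptible line. In both lines 71 IDs fell, which are 19.3% and 16.9% of those that fell in the resistant and the susceptible line. Only 1 ID passed in opposite directions, higher at 48 h in the resistant and lower in the susceptible line. This ID, Sme2.5_23785.1_g00001, was nearly absent from the resistant groups, at 0.431 CPM at 48 h and 0.0221 CPM at 24 h. In the susceptible line it had 50.2 and 268 CPM. Whether its resistant level at 48 h came from counts of the kind described for replicate 3 was not tested. For the shared IDs that rose, median log2 changes were 1.01 in the resistant and 1.11 in the susceptible line. For those that fell they were -1.11 and -1.0. The choice of IDs that passed in both lines favours similar medians, so nothing is read from these. Since 1 fit with 1 spread per ID gave both lists, an ID that varies little has a better chance of passing in each line.

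The level of the IDs that fell was also low at 48 h in the susceptible libraries, which entered the fit through the spread of each ID but not through the contrast. Their median was 17.8 to 19.4 CPM in the 3 susceptible libraries at 48 h, against 25.2 to 34.3 CPM at 24 h and 24.5 to 34.3 CPM over all 15 earlier libraries of that line. For the IDs that rose the median was 29.6 to 34.1 CPM at 48 h, against 22.5 to 26.6 CPM at 24 h, while the 15 earlier libraries reached 31.7 CPM and overlapped those at 48 h. Across 18138 IDs with a mean of at least 1 CPM, the changes of the 2 lines had a Pearson correlation of 0.205 and a Spearman correlation of 0.377. These are across IDs, which are not independent replicates.

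**Figure D3:**
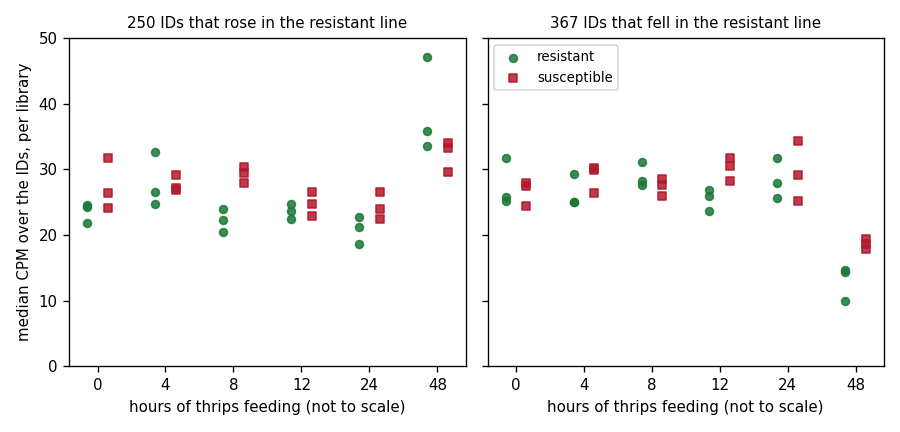
Each point is the median CPM in 1 library over the 250 IDs that rose (left) or the 367 that fell (right) in the resistant line between 24 h and 48 h, by hours of feeding, with the resistant line as green circles and the susceptible line as red squares. The IDs that fell stand at 9.93 to 14.6 CPM in resistant and at 17.8 to 19.4 CPM in susceptible leaves at 48 h, below every earlier library of either line. The choice of IDs favours the resistant levels at 48 h in both panels.

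Whether the change from 24 h to 48 h differed between the lines was tested directly. The difference passed for 32 IDs (0.135%), with a more positive change in the resistant line for 22 (0.0928%) and a more negative one for 10 (0.0422%) (edgeR, adjusted p under 0.05). Of these 32, 13 had changed in the resistant line, 12 of them without passing in the susceptible line, where their log2 changes were at most 0.99 in size. Their median size of change was 1.77 in the resistant and 0.47 in the susceptible line, and 6 of the 12 rose and 6 fell in the resistant line. A further 19 passed in the susceptible line and not in the resistant line, 15 of them lower at 48 h in the susceptible line. The median size of change of these 19 was 2.4 in the susceptible and 0.41 in the resistant line. Both sets were chosen by the line in which they passed, which favours such medians, so nothing is read from them. Among the 19, the largest change in the resistant line was 7.16, for an ID at 0.462 CPM at 48 h and 0 CPM at 24 h. In the susceptible line this ID had 105 CPM at 48 h and 640 CPM at 24 h. Whether its resistant level at 48 h came from counts of the kind described for replicate 3 was not tested. Of the 32 IDs, 19 had at least 5 CPM in all 4 groups. The difference thus passed for 13 of the 617 IDs (2.11%), and for the other 604 no difference between lines was shown.

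This count also rested on single libraries. Without resistant 48 h replicate 3 the difference again passed for 32 IDs, of which 18 were among the first 32. Without resistant 48 h replicate 2 it passed for 25. Leaving out each other library moved the count by over 1.5 times, from 13 without susceptible 48 h replicate 2 to 62 without resistant 48 h replicate 1. In the fit of the 12 libraries alone it passed for 15.

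Among the named IDs the difference between lines passed for Sme2.5_00136.1_g00012. Its log2 change was -3.11 in the resistant line and -0.99 ± 0.302 in the susceptible line (SE), where it had 2.99, 4.34 and 4.22 CPM at 48 h, against 8.19, 10.3 and 4.49 CPM at 24 h. The difference was -2.11 ± 0.435 (SE; edgeR adjusted p = 0.0408), close to the threshold. In susceptible leaves too it stood high at the early times. It had 52.2 ± 15.2 CPM at 0 h, 119 ± 20.4 CPM after 4 h and 115 ± 13.4 CPM after 12 h (SD, n = 3 each).

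Sme2.5_04026.1_g00001 fell in both lines. In the susceptible line it had 1.15, 0.723 and 1.06 CPM at 48 h, against 3.49, 12.6 and 4.87 CPM at 24 h, and the log2 change of -2.83 ± 0.578 passed there too (SE; edgeR adjusted p = 0.00666). The difference between the lines was -0.30 ± 0.775 (SE; edgeR adjusted p = 1). The libraries of both lines overlapped at 48 h.

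The 2 named IDs that rose in the resistant line were also higher at 48 h in the susceptible line without passing. Sme2.5_02627.1_g00004 had 43.1, 21.8 and 106 CPM at 48 h there, against 18.7, 4.70 and 8.03 CPM at 24 h (log2 change 2.45 ± 0.807, SE; edgeR adjusted p = 0.0896). Sme2.5_10464.1_g00001 had 251, 19.1 and 372 CPM at 48 h, against 70.5, 19.1 and 25.5 CPM at 24 h (log2 change 2.48 ± 0.874, SE; edgeR adjusted p = 0.113). In the second of these, 1 susceptible library at 48 h had not left the level of 24 h. The differences between lines were 4.46 ± 1.14 and 3.55 ± 1.21 on the log2 scale (SE) and did not pass (edgeR adjusted p = 0.135 and 0.28).

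**Figure D4:**
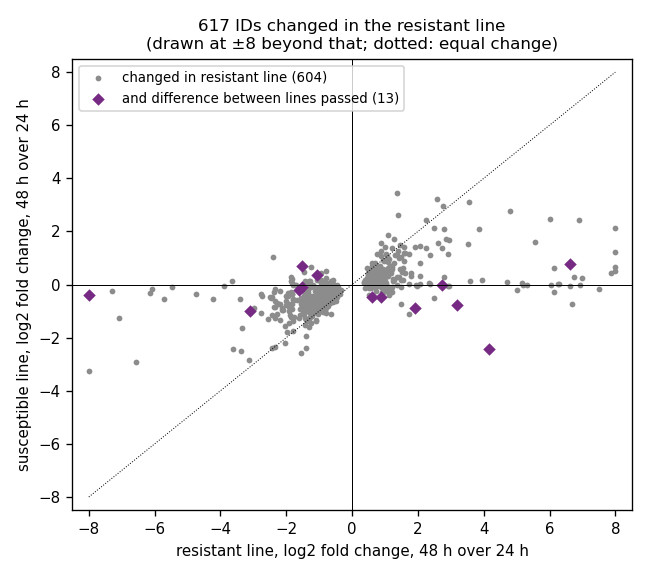
Each point is 1 of the 617 IDs that changed in the resistant line, with its log2 fold change, 48 h over 24 h, in the resistant line on the horizontal and in the susceptible line on the vertical axis. Most lie in the quadrants of equal sign, and the 13 diamonds are IDs for which the difference between lines passed edgeR's test.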

How the data were processed

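The members and rules were chosen with earlier results of these data known. The authors deposited whole-number estimated counts and FPKM per gene ID; the tools named per the submitters' processing notes are FastQC and HTSeq 0.6.1, while the aligner and genome build are not given in the sources used here. Beside the FPKM values of the authors, a deposited count of 1 corresponded to a median of 0.216, and a count of 2 to 1.49 (8625 IDs with a stable ratio), so the counts were treated as estimates that had been rounded up, although the design had assumed read counts. They were used as deposited whole numbers. Of 89388 rows, 3945 had no ID, held 4.46 to 7.28% of the counts and were left out of the library sizes and the tests. FPKM covered 62643 of 85443 IDs.

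All 36 libraries were fitted in R 4.3.3 with edgeR 4.0.16 (quasi-likelihood test, TMM, filterByExpr, 1 mean per line and time, 24 residual degrees of freedom). SEs come from the F statistic. Named were the 2 largest rises and the 2 largest falls among IDs that passed with and without resistant 48 h replicate 3, had 5 CPM or more in the higher group, no overlap and at least 10 counts in each of the 6 libraries. Alternatives were other size factors and filters, DESeq2 1.42.0, limma 3.58.1 on log2(FPKM + 1) and log2(FPKM + 0.1), replicate blocks and fewer libraries. Chi-square per ID between replicates was 62.5 to 133, far above sampling noise, so each counted as 1 sample. The p-values of the main fit set each change against a spread estimated over all 36 libraries.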

Additional observations from a re-analysis of the deposited data

Results flagged for a closer look

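The change from 24 h to 48 h differed between the resistant and the susceptible line for 32 IDs by edgeR's test of the difference itself, 13 of which had changed in the resistant line. Sme2.5_00136.1_g00012 was among them, with a difference of -2.11 on the log2 scale. Rows without a gene ID lay outside the comparisons. Of 3301 such rows tested with the library sizes of the rows with an ID, 51 (1.54%) changed between 48 h and 24 h in the resistant line, 22 higher and 29 lower at 48 h (edgeR adjusted p under 0.05).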

How the results depend on the processing

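Of 22 alternatives for the 617 IDs changed in the resistant line, 10 gave a count within 1.5 times. The count was 326 with a change of at least 2-fold required, 1614 by DESeq2, 144 with the 18 resistant libraries and 0 with the groups compared alone. In fits chosen after seeing the data it was 960 by DESeq2 and 2 by limma with the groups compared alone, and 106 with 17 resistant libraries. With 1 library left out it ran from 206 to 1270. For the susceptible line (840) it was 281 with the groups compared alone, 1817 by DESeq2 and 211 to 1142 with 1 library left out. For the difference between lines (32) it was 15 with the groups compared alone, 339 by DESeq2, 73 by limma on FPKM as deposited, 89 by limma on FPKM scaled by TMM, and 13 to 62 with 1 library left out. Leave-one-out counts for the difference were 62, 25 and 32 without resistant 48 h replicates 1, 2 and 3, 21, 15 and 17 without those at 24 h, 19, 13 and 15 without the susceptible ones at 48 h, and 50, 15 and 16 without those at 24 h. The cause of these differences was not tested.

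Labels give no meaning to replicate numbers, and deviations of same-numbered libraries at 48 h and 24 h correlated at 0.33, 0.063 and -0.0319 in the resistant line, where 1 of 3 libraries was closest to its own number. With a replicate block over all libraries 826, 771 and 71 IDs passed for the resistant line, the susceptible line and the difference. With the block and the groups compared alone, 0, 0 and 5 passed, with 3503, 4118 and 2697 at an unadjusted p under 0.05 (edgeR). FPKM as deposited moved the median of 12458 IDs by -0.03 in the resistant and -0.10 in the susceptible line, where 302 then rose and 678 fell. No named ID changed direction in 18 to 21 alternatives, of which 3 or 4 ended each call. All were fits of the groups compared alone, except that Sme2.5_04026.1_g00001 also missed with 17 resistant libraries (edgeR adjusted p = 0.0516).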

Other observations

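Gene numbers within a scaffold give the order of neighbours. The 617 changed IDs lay on 552 of 8516 scaffolds with a tested ID, 499 of which held 1 changed ID. Of 459 changed IDs with a tested neighbour, 22 (4.79%) had a changed neighbour, beside 4.01% of all 16653 tested IDs with a tested neighbour. The 11 neighbouring pairs in which both changed included 3 that both rose, 3 that both fell and 5 with opposite directions. The scaffold with most changed IDs held 5, all of which fell, among 46 tested. Over all tested IDs 2.6% changed and 1.55% fell. This scaffold was picked as the highest of 8516, so nothing is read from it.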
